A study of Homo sapiens with 2 samples.

Results

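The miR-23/27/24 family is encoded by 2 paralogous clusters, each with 3 hairpins. One holds hsa-mir-23a, hsa-mir-27a and hsa-mir-24-2, the other hsa-mir-23b, hsa-mir-27b and hsa-mir-24-1. The members were taken by hairpin name: 6 of the 1600 hairpins in the table, with 12 of its 2363 rows and 11 of its 2042 mature names. Of the 11 names, 10 occur in 1 hairpin only, and miR-24-3p is listed under both hsa-mir-24-1 and hsa-mir-24-2. All 11 had at least 10 counts in both libraries, which 543 of the 2042 names reached.

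Small RNA was sequenced from hCMEC/D3, a human brain microvascular endothelial line immortalised with telomerase and SV40 large T antigen and widely grown to study the barrier between blood and brain. There is 1 group of 2 libraries, labelled replicate 2 and replicate 8, with no treatment and no second group in the labels. Nothing in the labels says that the replicates came from separate cultures, so p-values measure only the difference between these libraries, which may be technical. The labels mention no molecular identifiers, and intervals and tests on counts cover counting error only. With 1 row kept per mature name, replicate 2 held 2721287 counts and replicate 8 held 2727675, so 3 counts correspond to 1.10 CPM (per-million counts, relative to these totals) in either library.

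A miRNA hairpin is cut from a longer transcript and then processed into a short duplex with a 5p and a 3p arm. One arm, the guide, is usually retained by an Argonaute protein, and pairs with targets mainly through its seed, bases 2 to 8, while the other, the passenger, is mostly degraded. Hairpins of a cluster can be cut from one transcript, but each hairpin is processed and each arm retained separately. In endothelial cells miR-23 and miR-27 are known for roles in sprouting, with the signalling inhibitor Sprouty2 and the guidance protein Sema6A among their reported targets, and miR-24 for repression of the transcription factor GATA2 and the kinase PAK4.

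The labelled cell type was checked on its miRNAs. Replicate 2 had 109395 CPM of the endothelial miR-126-3p, and replicate 8 had 115057. Of 15 listed markers of other cell types, 4 had no count in either library. These were miR-142-3p and miR-223-3p of white blood cells, miR-144-3p of red blood cells and miR-141-3p of epithelium. Other listed markers of red blood cells and epithelium were counted, with miR-451a at 43 and 19 counts and miR-200c-3p at 118 and 85. The epithelial miR-205-5p and miR-429 had 15 and 13 counts in replicate 2 and none in replicate 8. The 15 summed to 1152 CPM in replicate 2 and 693 CPM in replicate 8, led by miR-143-3p of mural cells (2000 and 871 counts) and miR-122-5p of liver (639 and 688 counts), and their part in the results was not tested.

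The guide arms show how the clusters can and cannot be told apart. The mature sequences below are RefSeq's (table of build GRCh38.p14), with the seed in capitals.

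miR-23a-3p: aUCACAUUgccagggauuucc

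miR-23b-3p: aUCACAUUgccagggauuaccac

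miR-27a-3p: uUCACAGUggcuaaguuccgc

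miR-27b-3p: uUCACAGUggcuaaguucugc

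miR-24-3p: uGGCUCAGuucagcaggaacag

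Positions are counted from 1 at the 5′ end. The miR-23 guides share their first 18 bases and then differ by U19A (miR-23a-3p has U at position 19 and miR-23b-3p has A), and miR-23b-3p is 2 bases longer. The miR-27 guides also share 18 bases and differ by C19U. Both differences lie outside the seed, so each pair has 1 seed, UCACAUU for miR-23 and UCACAGU for miR-27. These 2 seeds differ from each other by U7G. Reads that end before base 19 cannot be assigned to the a or the b paralogue, and how the authors treated such reads is not given in the sources used here.

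For miR-24-3p no base separates the loci. The RefSeq hairpins are printed with this arm in capitals.

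hsa-mir-24-1: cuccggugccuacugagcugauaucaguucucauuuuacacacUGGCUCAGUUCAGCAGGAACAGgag

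hsa-mir-24-2: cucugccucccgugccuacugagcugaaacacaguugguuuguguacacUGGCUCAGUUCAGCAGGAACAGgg

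Around the 22 bases of miR-24-3p the hairpins share 4 more bases before it and 1 after it, a common stretch of 27 bases. The passenger arms of the paralogues differ at more positions and are named by hairpin.

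miR-23a-5p: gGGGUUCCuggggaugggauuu

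miR-23b-5p: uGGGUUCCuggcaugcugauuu

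miR-27a-5p: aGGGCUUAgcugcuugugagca

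miR-27b-5p: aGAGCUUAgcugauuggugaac

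miR-24-2-5p: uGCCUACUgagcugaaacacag

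miR-24-1-5p: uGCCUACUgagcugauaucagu

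Over 22 aligned bases the miR-23 passengers differ at 7 positions, the miR-27 passengers at 8 and the miR-24 passengers at 6. Each of the miR-23 and miR-24 passenger pairs has a common seed. The miR-27 passengers do not, because G3A falls inside it. The miR-24 passengers are alike over their first 15 bases and differ only towards the 3′ end.

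The hairpins were placed on GRCh37, which is the build hg19 that the submitters' processing notes name, by matching the RefSeq hairpin sequences. The first cluster lies on chromosome 19, minus strand, with hsa-mir-23a at 13947401 to 13947473, hsa-mir-27a at 13947254 to 13947331 and hsa-mir-24-2 at 13947101 to 13947173. It spans 373 bases, and all 3 hairpins lie in an exon of the only spanning transcript of the long non-coding RNA MIR23AHG. The second lies on chromosome 9, plus strand, with hsa-mir-23b at 97847490 to 97847586, hsa-mir-27b at 97847727 to 97847823 and hsa-mir-24-1 at 97848303 to 97848370. It spans 881 bases in introns of AOPEP, which encodes an aminopeptidase, on the same strand. None of the 7 spanning AOPEP transcripts has an exon at hsa-mir-23b or hsa-mir-27b, and 1 of 7 has one at hsa-mir-24-1. The order of the hairpins is the same in both clusters, and the gaps are 69 and 80 bases in the first and 140 and 479 bases in the second.

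**Figure D1:**
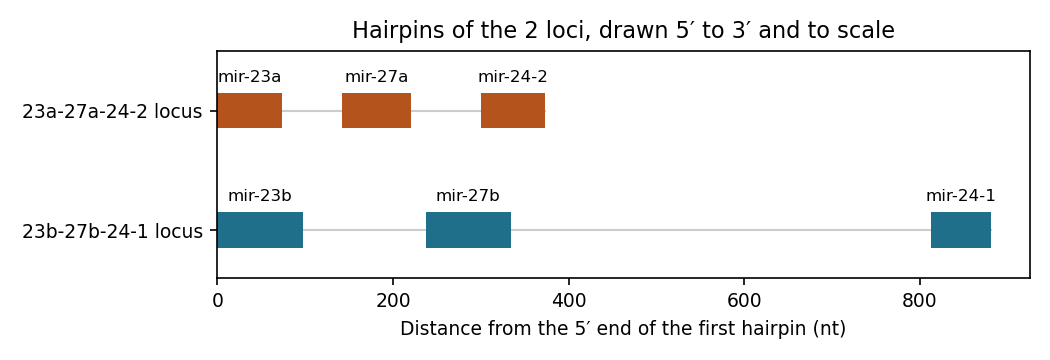
Hairpins of the 2 clusters, drawn to scale and 5′ to 3′. The x axis gives the distance in bases from the 5′ end of the first hairpin. The first cluster spans 373 bases and the second 881, with the longest gap (479 bases) before mir-24-1.

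The 11 mature miRNAs together held 5.18% ± 0.08 of all counts (SD, n = 2), 139435 counts in replicate 2 and 142822 in replicate 8. The 5 guides, all on the 3p arm, held 5.01% ± 0.07 and the 6 passengers 0.170% ± 0.010. Members ranged from 28917 to 10.6 CPM in the mean, with the 5 guides in the first 5 places. The steps below describe levels of different miRNAs in the same library, which adaptor ligation can shape as well as abundance.

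The most abundant member was miR-24-3p, the guide that both clusters encode, with 74756 counts in replicate 2 and 82819 in replicate 8. With 1 row counted, it had 28917 ± 2045 CPM and ranked seventh of all mature names in each library. On the same count it held 55.8% ± 3.1 of the counts of the members. Its neighbours in the mean order were let-7i-5p at 30087 ± 5804 CPM and miR-30a-5p at 26811 ± 2419 CPM. The order of miR-24-3p and let-7i-5p was not the same in the libraries, with miR-24-3p the higher in replicate 2 (27471 against 25983 CPM) and let-7i-5p in replicate 8 (34191 against 30363 CPM).

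The table lists miR-24-3p with 74756 and 82819 counts under hsa-mir-24-1, and with 74636 and 82730 under hsa-mir-24-2. The rows differed by 120 counts in replicate 2 and 89 in replicate 8, which is 0.161% and 0.107% of the larger. The rows are nearly equal and do not divide miR-24-3p between the clusters. Only the row of hsa-mir-24-1 was used for its level, its share of the members and its ratio to miR-23a-3p. If the reads were split between the rows, all of these would be higher.

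The guide miR-23a-3p had 18738 counts in replicate 2 and 19406 in replicate 8, 7000.1 ± 162 CPM. The guide miR-27a-3p had 21675 and 15692 counts, 6859 ± 1564 CPM. Their mean levels were close, and their order changed: miR-27a-3p was the higher in replicate 2 and miR-23a-3p in replicate 8. Beside them in the mean order stood miR-361-3p at 7067 ± 1347 CPM above and miR-146a-5p, a brake on inflammatory signalling, at 6332 ± 318 CPM below.

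The guides of the second cluster were lower. For miR-27b-3p there were 14881 counts in replicate 2 and 14684 in replicate 8, 5426 ± 60.1 CPM, between miR-25-3p (5662 ± 247 CPM) and let-7e-5p (4983 ± 163 CPM). For miR-23b-3p there were 4950 and 5393 counts, 1898 ± 112 CPM, between miR-574-5p (1902 ± 14.3 CPM) and miR-224-5p (1822 ± 172 CPM). Both libraries thus placed miR-27b-3p below the a guides and above miR-23b-3p, although its distance to miR-27a-3p in replicate 8 was small (5383 against 5753 CPM).

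Among the passengers, miR-27a-5p was the most abundant, with 2433 counts in replicate 2 and 2801 in replicate 8, 960 ± 93.9 CPM. It was followed by miR-24-2-5p with 1284 and 1248 counts, 465 ± 10.1 CPM. The next were miR-27b-5p with 275 and 343 counts, 113 ± 17.5 CPM, and miR-23a-5p with 265 and 279 counts, 99.8 ± 3.47 CPM. These last differed by less than the spread between the libraries, since the 101 CPM of miR-27b-5p in replicate 2 lay between the 97.4 and 102 CPM of miR-23a-5p. The lowest were miR-23b-5p with 146 and 131 counts, 50.8 ± 3.98 CPM, and miR-24-1-5p with 32 and 26 counts, 10.6 ± 1.57 CPM. At this depth the count of miR-24-1-5p has an exact 95% Poisson interval of 21.9 to 45.2 in replicate 2 and 17.0 to 38.1 in replicate 8.

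**Figure D2:**
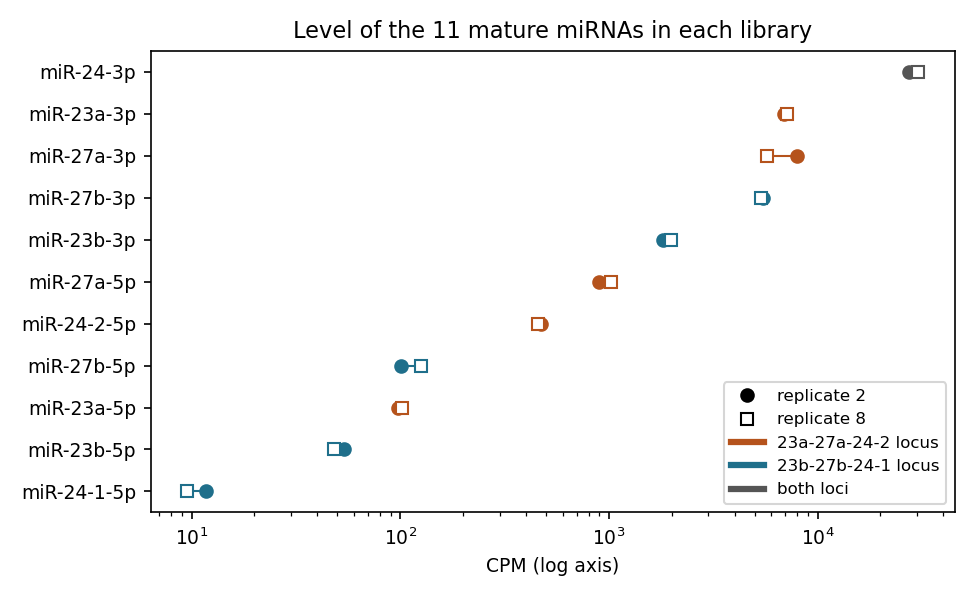
Level of the 11 mature miRNAs in CPM (log axis) in replicate 2 (filled circles) and replicate 8 (open squares), coloured by cluster, with a line joining the libraries. The guides lie between 1819 and 30363 CPM and the passengers between 9.53 and 1027 CPM, and miR-27a-3p has the longest line among the guides.

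The clusters were then compared within each pair of paralogous arms, where the scaling of the libraries cancels. In all 5 pairs of separately named arms the arm of the 23a-27a-24-2 cluster was the more abundant in both libraries. The amounts ranged from near parity to over 40-fold. The guides of a pair are alike over their first 18 bases, and how reads that end within these were counted is not given. The counting intervals of the guide shares do not cover this.

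In the miR-23 guides, the share of miR-23b-3p was 20.9% of the pair in replicate 2, with a 95% Wilson interval of 20.4 to 21.4, against 21.7% (21.2 to 22.3) in replicate 8. This corresponds to 3.69 ± 0.13 counts of miR-23a-3p per count of miR-23b-3p. In the miR-27 guides, miR-27b-3p held 40.7% in replicate 2 (40.2 to 41.2) and 48.3% in replicate 8 (47.8 to 48.9), a ratio of miR-27a-3p to miR-27b-3p of 1.46 and 1.07. As counted, the miR-27 guides were divided more evenly than the miR-23 guides in either library, with intervals that do not overlap.

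The passengers gave another order. For miR-23, miR-23b-5p held 35.5% of the pair in replicate 2 (31.0 to 40.3) and 32.0% in replicate 8 (27.6 to 36.6). For miR-27, miR-27b-5p held 10.2% (9.07 to 11.3) and 10.9% (9.87 to 12.0), a ratio of miR-27a-5p to miR-27b-5p of 8.51 ± 0.48. The share of the second cluster was thus higher in the passengers than in the guides of miR-23, and lower in the passengers than in the guides of miR-27, with intervals that do not overlap in either library. As counted, guides and passengers of one hairpin did not give the same ratio between the clusters.

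For miR-24 only the passengers separate the hairpins. There were 40.1 counts of miR-24-2-5p per count of miR-24-1-5p in replicate 2 and 48.0 in replicate 8, and miR-24-1-5p held 2.43% (1.73 to 3.41) and 2.04% (1.40 to 2.97) of the pair. The printed sequences differ from base 16, where A16U separates miR-24-2-5p from miR-24-1-5p. Over the 3 passengers summed, the second cluster held 10.2% of the counts in replicate 2 (9.36 to 11.1) and 10.4% in replicate 8 (9.53 to 11.2). Over the 10 hairpin-specific names, guides included, it held 31.4% (31.0 to 31.7) and 34.3% (33.9 to 34.7).

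**Figure D3:**
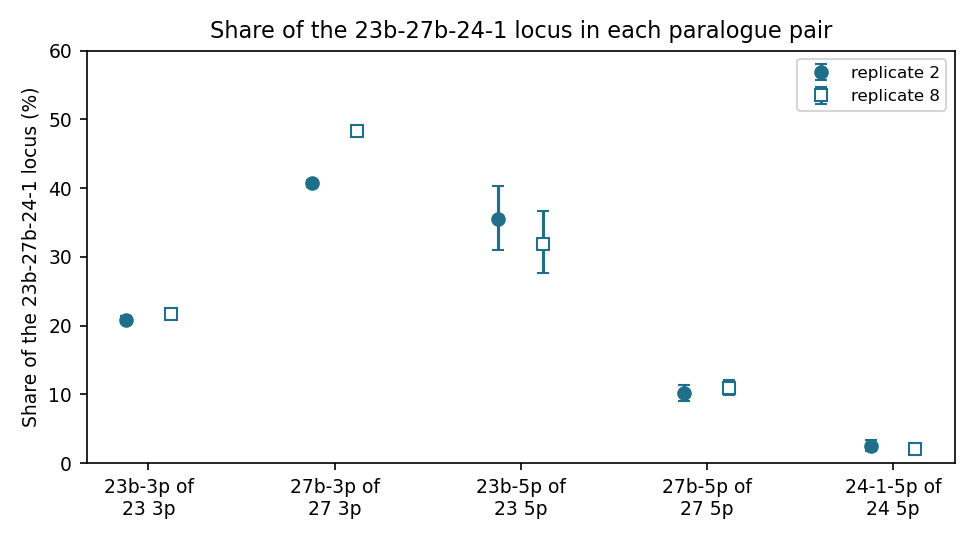
Share of the 23b-27b-24-1 cluster (y axis, %) in each pair of paralogous arms, with 95% Wilson intervals, in replicate 2 (filled circles) and replicate 8 (open squares). The share runs from 2.04% for the miR-24 passengers to 48.3% for the miR-27 guides, and the miR-23 and miR-27 pairs are in opposite order in guides and passengers.

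The shares were tested between the libraries with Fisher's exact test, adjusted over all 169 pairs of mature names in the table that differ only in their letter or hairpin number. Among all pairs 26.0% were called at an adjusted p under 0.05, and 1 of the 5 pairs of the clusters was. That one was the miR-27 guides, where the share of miR-27b-3p was 7.63 percentage points higher in replicate 8 (Fisher's exact adjusted p = 5.5e-86). For the miR-23 guides the difference was 0.85 points (Fisher's exact adjusted p = 0.084). The median absolute difference was 0.85 points over the 5 pairs and 0.92 points over all 169.

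Within a cluster the members stood in different proportions. In the first cluster the guide ratio of miR-27a-3p to miR-23a-3p was 1.16 in replicate 2 and 0.81 in replicate 8. With 1 row of miR-24-3p counted, there were 4.13 ± 0.20 counts of it per count of miR-23a-3p. In the second, miR-27b-3p exceeded miR-23b-3p by 3.01 and 2.72 times. Between miR-27 and miR-23 the passengers were less even than the guides in the first cluster, where miR-27a-5p exceeded miR-23a-5p by 9.18 and 10.0 times. This was not so in the second, where miR-27b-5p exceeded miR-23b-5p by 1.88 and 2.62 times. Against the miR-24 passenger the clusters were in the other order. There miR-27a-5p exceeded miR-24-2-5p by 1.89 and 2.24 times, and miR-27b-5p exceeded miR-24-1-5p by 8.59 and 13.2 times. In both clusters the miR-27 passenger was the most abundant of the 3, and the lowest was miR-23a-5p in the first and miR-24-1-5p in the second.

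The arm preference was compared for each hairpin. In the 4 hairpins of miR-23 and miR-27, whose arms all have names of their own, the 3p arm was the more abundant. Among all 202 hairpins with enough counts 87 had a mean 5p share under 50% and 115 over 50%. The hairpin hsa-mir-27a stood apart from the other 3, since its 5p share was 10.1% (Wilson interval 9.72 to 10.5) in replicate 2 against 15.1% (14.6 to 15.7) in replicate 8. Its paralogue hsa-mir-27b had 1.81% (1.61 to 2.04) and 2.28% (2.06 to 2.53). The miR-23 hairpins were in the opposite order, with 1.39% (1.24 to 1.57) and 1.42% (1.26 to 1.59) for hsa-mir-23a and 2.86% (2.44 to 3.36) and 2.37% (2.00 to 2.81) for hsa-mir-23b.

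For the miR-24 hairpins the shares depend on what the 2 nearly equal rows of miR-24-3p hold, which is not given. With each hairpin's own row they were 1.69% (1.60 to 1.79) and 1.49% (1.41 to 1.57) for hsa-mir-24-2. For hsa-mir-24-1 they were 0.043% (0.030 to 0.060) and 0.031% (0.021 to 0.046). These are lower limits if each row holds all miR-24-3p reads. If the reads were split between the rows, the limits are those with the rows summed, in the mean 0.80% for hsa-mir-24-2 and 0.019% for hsa-mir-24-1. Both miR-24 passengers together made up 1.73% and 1.51% of the miR-24 counts, with 1 row of miR-24-3p counted.

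Between the libraries the 5p share was called different for 3 of the 6 hairpins (Fisher's exact test, adjusted over the 202), and for 19.8% of all 202. Of the 4 whose arms have names of their own, hsa-mir-27a and hsa-mir-27b were called. For hsa-mir-27a the share was 5.05 points higher in replicate 8 (log2 odds ratio 0.67, Fisher's exact adjusted p = 5.2e-53), which ranked 26th of 202 in points and 55th in odds ratio, so larger shifts occurred elsewhere in these libraries. For hsa-mir-27b it was 0.47 points higher (Fisher's exact adjusted p = 0.025). The call for hsa-mir-24-2 (-0.21 points, Fisher's exact adjusted p = 0.0080) rests on a miR-24-3p count that cannot be assigned to 1 hairpin. It is therefore not a measured change in the arms of that hairpin. The median absolute shift was 0.34 points over the 6, the miR-24 hairpins included, and 0.66 points over all.

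**Figure D4:**
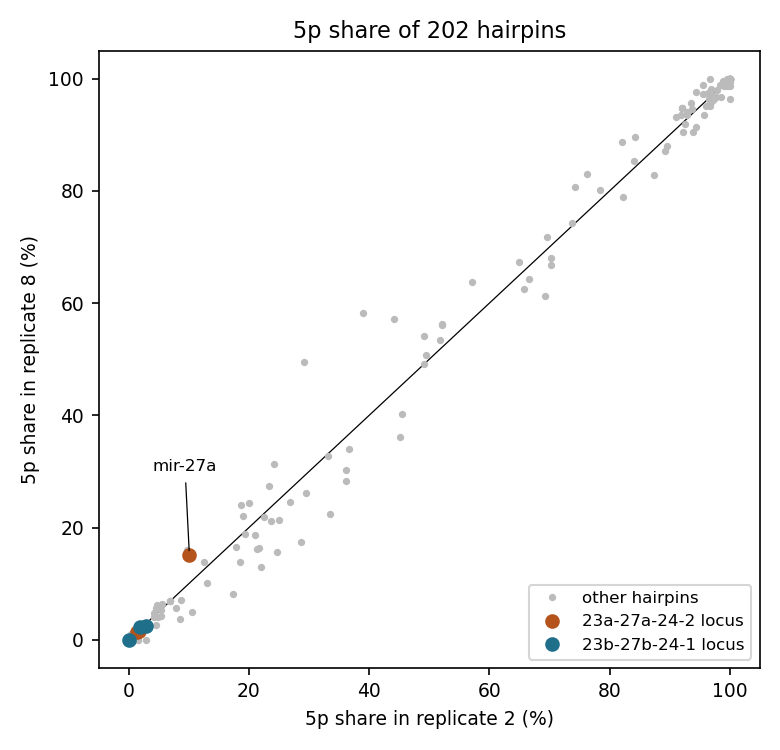
Share of the 5p arm (%) in replicate 2 (x axis) and replicate 8 (y axis) for 202 hairpins, with the 6 hairpins of the clusters coloured and the line of equality. The miR-23 and miR-27 hairpins lie at the 3p end, with mir-27a, at 10.1% and 15.1%, the only one of these 4 above 3% in either library. The points of mir-24-1 and mir-24-2 rest on miR-24-3p counts that cannot be assigned to 1 hairpin. They are lower limits only if each row holds all miR-24-3p reads.

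The levels of the members were also compared between the libraries, with an exact binomial test for each of the 695 mature names with at least 10 summed counts and Benjamini-Hochberg adjustment over all of them. Of all names tested 34.2% were called, 10.8% as higher and 23.5% as lower in replicate 8. Of the 11 members 6 were called, 5 higher and 1 lower. The median log2 ratio of replicate 8 over replicate 2 was 0.05 over the members and -0.11 over all names, and the median absolute ratio 0.14 and 0.33. Most members are deeply counted. Among names with at least 100 summed counts, 54.8% of 367 were called, against 6 of 10 members, and the median absolute ratio was 0.21 over these names and 0.13 over these members. The directions depend on the scaling, since TMM sizes raise every log2 ratio by 0.10. With TMM sizes 111 of all names were called higher and 116 lower, in place of 75 and 163. With TMM sizes 6 members were called higher and 1 lower.

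The member called lower was miR-27a-3p, at -0.47 on the log2 scale. Its exact 95% interval was -0.50 to -0.44 and its adjusted p, from the exact binomial test, 1.8e-212. The passenger of the same hairpin, miR-27a-5p, went the other way, at 0.20 (0.12 to 0.28; adjusted p of the exact binomial test 4.4e-06). Both arms of hsa-mir-27a thus moved apart, and the guide of the paralogue, miR-27b-3p, had a log2 ratio of -0.02 (-0.06 to 0.01) that was not called, but was called higher with TMM sizes (0.08, adjusted p of the exact binomial test 4.2e-05). The level of the summed miR-27 guides was 13433 CPM in replicate 2 and 11136 CPM in replicate 8.

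The other members called were higher in replicate 8 by small amounts. The log2 ratio was 0.14 for miR-24-3p, 0.12 for miR-23b-3p and 0.05 for miR-23a-3p, and 0.31 (0.08 to 0.55) for miR-27b-5p. The remaining passengers, miR-23a-5p, miR-23b-5p, miR-24-1-5p and miR-24-2-5p, were not called. The interval was widest for miR-24-1-5p, from -1.11 to 0.49, so its counts leave the direction and size of a difference open within that range.

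**Figure D5:**
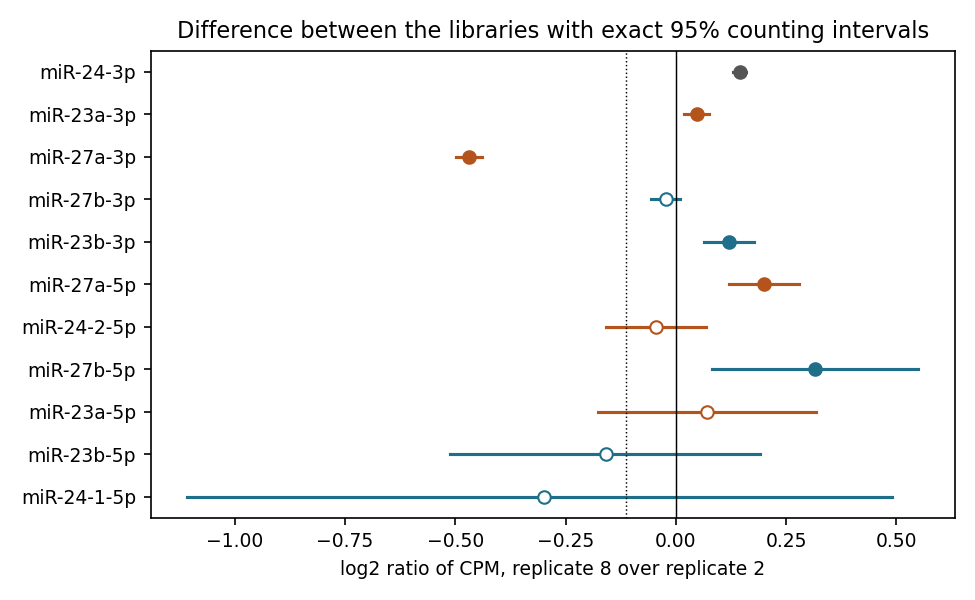
Log2 ratio of CPM, replicate 8 over replicate 2, for the 11 members, with exact 95% counting intervals. Filled points were called at an adjusted p under 0.05, and the dotted line is the median of all names tested (-0.11). The guide miR-27a-3p lies at -0.47, apart from the other guides, which lie between -0.02 and 0.14.

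The uneven passengers of miR-24 were set beside other guides that are encoded by a pair of hairpins. For miR-16-5p, a cell-cycle regulator, the rows of its hairpins held 4146 and 4144 counts in replicate 2, and there were 39.5 counts of miR-16-2-3p per count of miR-16-1-3p in replicate 2 and 34.8 in replicate 8. For miR-181a-5p, with 59634 and 59630 counts, there were 18.0 and 19.5 counts of miR-181a-3p (from hsa-mir-181a-1) per count of miR-181a-2-3p. For miR-29b-3p, a repressor of collagen genes, with 260 counts in either row, there were 7.75 and 3.55 counts of miR-29b-2-5p per count of miR-29b-1-5p. In each family 1 hairpin gave most of the passenger counts. The guide rows were equal or nearly so, but they list 1 mature name under both hairpins and do not measure the guide from each. Among the 7 pairs of mature names in the table that carry a hairpin number and had at least 50 counts in each library, the miR-24 passengers were the fifth most uneven by mean share. Their place beside the miR-125b passengers differed between the libraries, with the miR-125b ratio at 38.9 in replicate 2 and 65.7 in replicate 8. No difference between families was tested.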

How the data were processed

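Small RNA libraries of hCMEC/D3 (replicates 2 and 8) were analysed. Raw counts per mature miRNA and hairpin were deposited, per the file headers, with RPM columns that the authors scaled; these equal the counts divided by 3180045 in replicate 2 and 3205752 in replicate 8. The submitters' processing notes name CASAVA 1.9, FastQC, cutadapt, Bowtie 0.12.7 and hg19; the counter, the miRBase release and the treatment of reads that fit several hairpins are not given in the sources used here.

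Where a mature name had several rows, the one with the most counts on average represented it. Exact binomial and Fisher's exact tests (scipy 1.17.1, two-sided) were adjusted by Benjamini-Hochberg over the whole table, at 0.05. Arm and paralogue shares needed at least 50 counts in each library. Log2 ratios used a pseudocount of 0.5 counts, and SDs are over 2 libraries. With 1 group there is no contrast, and edgeR 4.0.16 and DESeq2 1.42.0 gave library sizes only. Both kinds of test were tested on simulated data. The simulated counts had counting error only, and for the binomial test the shift in composition was taken out. How the tests behave where libraries differ in other ways was not tested. Hairpins came from RefSeq (GRCh38.p14) and were matched to GRCh37; all 6 matched once on their chromosome, and GENCODE lists a miRNA gene of that name for 4 of them, not for the miR-24 hairpins. All 11 mature names matched by name.

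Named miRNAs were all members, entries related by seed or position, 3 like hairpin pairs, and the neighbours in rank of each guide. The members and lists were chosen with earlier results of these data known. Likeness of pattern was not computed, since 2 libraries of 1 group allow none. Scaling, repeated rows, filters, pseudocounts and each library left out were the alternatives.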

Additional observations from a re-analysis of the deposited data

How the results depend on the processing

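No paired analysis was possible because there is 1 group. The summed level of the members was 51800 CPM, and 69090 CPM with repeated rows summed, 44199 CPM on the authors' RPM columns and 58350 CPM when miR-126-3p was left out of the total. With the rows of miR-24-3p summed, the 5p share was 0.80% for hsa-mir-24-2 and 0.019% for hsa-mir-24-1. Each of these alternatives changes the denominator or the sum itself. With TMM sizes and DESeq2 size factors the log2 ratio of miR-24-2-5p was 0.054 and 0.058 and that of miR-27b-3p 0.076 and 0.080, against -0.04 and -0.02 with total counts. With DESeq2 size factors 111 names were called higher and 113 lower. The number of members called was 6 or 7 under each alternative, while the share over all names varied. Without a filter on low counts 6 of 11 members and 224 of 1134 names were called. With testing and adjustment limited to names with at least 100 summed counts, these were 6 of 10 and 212 of 367. The 54.8% given above for the same names came from the adjustment over all 695. With repeated rows kept apart, 7 of 12 member rows and 277 of 795 rows were called. With TMM sizes and DESeq2 size factors 7 of 11 members were called, and 227 and 224 of 695 names. With a minimum of 10 counts, 3 of the 6 hairpins were called for their 5p share, against 43 of all 279 tested. For the paralogue share 1 of 5 pairs was called, against 47 of all 254. With a minimum of 500 counts, 3 of the 6 hairpins (34 of all 118) and 1 of 4 pairs (33 of all 84) were called. Leaving out a library gives the value of the other one, which with 2 libraries always lies within 1 SD of their mean and shows nothing about stability. Of 54 recomputed log2 ratios of members, 50 kept direction and call. The 4 others were those of miR-24-2-5p and miR-27b-3p with TMM sizes and DESeq2 size factors. Filters on counts leave a log2 ratio as it was, so only its call could change. Keeping repeated rows apart shifted all of them alike. The 22 log2 levels with other pseudocounts moved by less than 1 SD. Depth limits miR-24-1-5p most.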

Other observations

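Related entries were far less abundant than the guides, except for miR-128. The table lists miR-23c, which has the miR-23 seed and differs from miR-23a-3p by G14U and U19A, with 10 counts in replicate 2 (exact 95% Poisson interval 4.80 to 18.4) and 5 in replicate 8 (1.62 to 11.7). The hairpin hsa-mir-3074 lies on the strand opposite to hsa-mir-24-1, on chromosome 9 at 97848296 to 97848376 (GRCh37, minus strand). Its arm miR-3074-5p is complementary to miR-24-3p over 20 bases and had 106 counts in replicate 2 and 135 in replicate 8, 44.2 ± 7.45 CPM, against 10.6 ± 1.57 CPM for miR-24-1-5p from the plus strand of the same place. Its other arm, miR-3074-3p, had 0 and 5 counts. For the 0 in replicate 2 the exact 95% Poisson interval reaches 3.69 counts.

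The seed of miR-27 overlaps that of miR-128, a miRNA known from neurons: the first 8 bases of miR-128-3p equal bases 2 to 9 of miR-27a-3p. The table lists miR-128 without an arm, with 7313 counts in replicate 2 and 6632 in replicate 8 under hsa-mir-128-1, 2559 ± 181 CPM. A further row, under hsa-mir-128-2, had 6917 and 6274 counts, 2421 ± 171 CPM. Each row was below the level of either miR-27 guide in both libraries. The rows were not summed, and how far they hold the same reads is not given. From the row of hsa-mir-128-1, the log2 ratio of miR-128 between the libraries was -0.14 (exact binomial adjusted p = 3.0e-08).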
